A study of Mus musculus with 6 samples.

Results

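The hedgehog pathway of the mouse testis was followed here in 9 genes of the 23361 in the deposited table: the ligand gene Dhh, the receptor and binding protein genes Ptch1, Smo and Hhip, the transcription factor genes Gli1, Gli2 and Gli3, and the forkhead genes Foxf1 and Foxf2. They were taken by their symbols, and all 9 were present. Of these, 8 had enough fragments to be tested, and Foxf2 did not. The set was drawn up with the comparison of inhibitor and control mice already known: Foxf1 was chosen by its fold change and adjusted p in that comparison, and the other genes joined it for their roles in the pathway. The fold changes of all 9 are therefore given as a description. Adjusted p-values beside them place each gene in the fit over all genes and support nothing further.

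Polyadenylated RNA was sequenced from the whole testes of 6 C57BL/6J mice about 120 days old. In the inhibitor group 3 mice were injected daily for 9 days with the compound 1NaPP1-HCl dissolved in vehicle, and in the control group 3 mice were injected with the vehicle of saline, cremophor and ethanol. Both groups, controls included, carried the Ret V805A substitution on both alleles. Ret encodes the receptor kinase for GDNF, a growth factor that keeps spermatogonial stem cells, and the substitution lets the compound block it. Testes were collected on day 14, after 5 days without injections, to ask how inhibited GDNF signalling affects the testis transcriptome. Mice without the substitution that received the compound are not among the samples, and no measure of kinase activity was made in these data. Each library came from its own mouse, by the labels.

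In hedgehog signalling, a secreted ligand binds the receptor PTCH1, which otherwise holds the membrane protein SMO inactive. Released SMO signals through the primary cilium to the GLI transcription factors, of which GLI1 acts as an activator and GLI3 largely as a repressor, while GLI2 is the main activator upstream of Gli1. Ptch1, Hhip and Gli1 are themselves switched on by the pathway in many tissues and serve as its usual readouts. In the testis the ligand is desert hedgehog, made by Sertoli cells, the somatic cells that nurse the germ cells. It acts on the Leydig and peritubular myoid cells outside the epithelium. FOXF1 and FOXF2 are forkhead factors of mesenchyme, known as hedgehog-responsive genes in the developing gut and lung.

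Libraries held 23144295 to 43127892 fragments, so that 1 CPM (the fragment count scaled to library size) rested on 23.1 to 43.1 fragments. CPM compares a gene between libraries, and FPKM, which also divides by transcript length, compares genes with each other. Inhibitor mouse 3 stood apart from the other inhibitor mice: its pairs had a chi-square of 12.1 and 13.1 per degree of freedom, against 4.94 for inhibitor mice 1 and 2 and 4.23 to 6.05 between controls. It was the highest of the 3 inhibitor mice in 6 of the 8 tested members (Dhh, Ptch1, Gli1, Gli2, Gli3 and Hhip), and it was the lowest in Foxf1. Among all tested genes it was highest in 38.5% and lowest in 37.1%. Results that change without it are given both ways.

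The promoters of the ligand and of its receptor are shown because these genes open the pathway and had the highest levels of the set. Each sequence runs 5′ to 3′ from 250 bases before to 50 bases after the RefSeq start on GRCm38.p6, with every CG dinucleotide in capitals. Dhh lies on the minus strand at chr15:98898491-98898790, and Ptch1 on the minus strand at chr13:63565686-63565985, a start that lies inside the span of the gene in the annotation used below (GENCODE M21).
Dhh: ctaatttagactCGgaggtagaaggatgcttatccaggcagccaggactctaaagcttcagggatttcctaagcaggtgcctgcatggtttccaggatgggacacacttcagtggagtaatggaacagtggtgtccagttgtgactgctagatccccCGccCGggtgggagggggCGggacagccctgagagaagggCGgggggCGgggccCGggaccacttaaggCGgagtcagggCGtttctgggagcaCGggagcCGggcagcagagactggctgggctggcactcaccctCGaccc
Ptch1: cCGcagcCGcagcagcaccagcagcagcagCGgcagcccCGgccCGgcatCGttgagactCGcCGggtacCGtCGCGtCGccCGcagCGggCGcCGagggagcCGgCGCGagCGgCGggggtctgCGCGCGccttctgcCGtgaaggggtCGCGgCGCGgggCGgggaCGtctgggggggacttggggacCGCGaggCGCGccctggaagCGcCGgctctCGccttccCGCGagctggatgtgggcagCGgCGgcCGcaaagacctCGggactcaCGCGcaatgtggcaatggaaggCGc
The Dhh promoter holds 12 CG dinucleotides and the Ptch1 promoter 47, against a median of 7 over 32851 promoters of the same length. Fewer than in Dhh were found in 60.4% of those promoters, and fewer than in Ptch1 in 98.6%. RefSeq promoters were matched for 7 of the 9 members, all except Foxf1 and Gli1. Neither the GLI consensus GACCACCCA nor its shorter part CCACCCA, which lies within it, occurs on either strand in any of the 7 windows. All promoters hold these in 0.253% and 9.3% of cases. The forkhead motif GTAAACA, searched on both strands, is also in none of the 7 and is in 3.65% of all promoters. These counts say only that the letters are not in those windows.

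Dhh was by far the most abundant member, and the 8 others lay in the lower part of the range of testis RNAs. Over the 6 libraries Dhh averaged 9.84 FPKM, above 59.1% of the 16658 tested genes. Ptch1 followed at 1.76 FPKM and Smo at 1.18 FPKM, whose ranges over the 6 libraries overlapped each other but not that of Dhh. Then came Gli1 at 0.452, Foxf1 at 0.440, Gli3 at 0.276, Gli2 at 0.216 and Hhip at 0.186 FPKM. Each of these overlapped its neighbour in the order, while Smo and Gli1 did not overlap. Hhip stood above 3.1% of tested genes, and Foxf2 came last at 0.0179 FPKM, below the range of Hhip. In FPKM, Dhh was 5.02 to 6.54 times Ptch1 in inhibitor mice and 4.85 to 5.96 times Ptch1 in control mice.

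**Figure D1:**
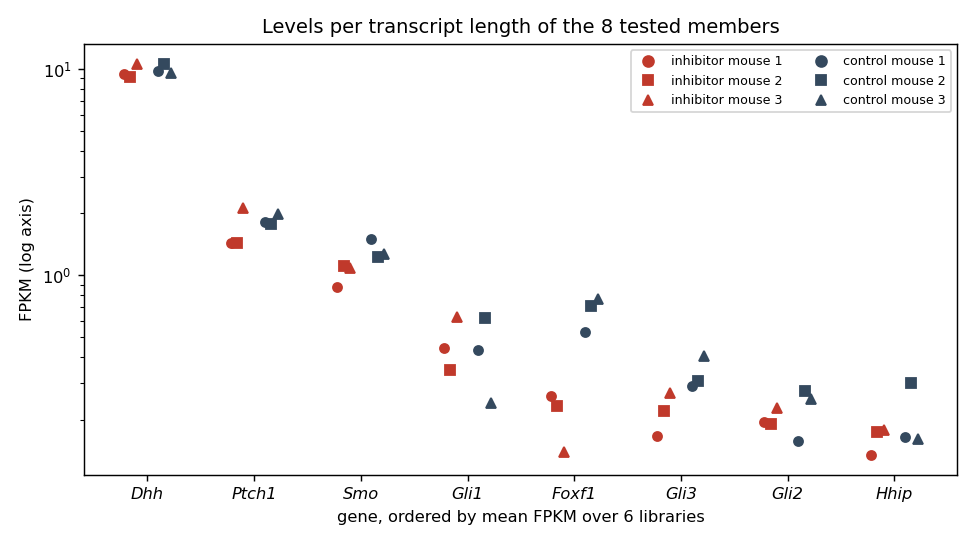
FPKM of the 8 tested members in each library on a log axis, ordered by mean FPKM over 6 libraries, with inhibitor mice in red and control mice in dark blue. Dhh sits near 9.84 FPKM, Ptch1 and Smo near 1.76 and 1.18 FPKM, and the other 5 genes have means under 0.5 FPKM. Foxf2 is left off because it was at 0 fragments in control mouse 1.

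Of the 8 tested members, Foxf1 alone passed the threshold over all genes (edgeR quasi-likelihood test, Benjamini-Hochberg adjusted p below 0.05), the call by which it was chosen, against 0.156% of all tested genes called in either direction (0.096% lower and 0.06% higher). Foxf1, Gli3 and Smo were lower in every inhibitor mouse than in every control mouse. This was so for 11.9% of all tested genes, and for 22.9% the groups did not overlap in either direction. Nothing is read from these counts, because the set was made with the comparison known. The median log2 fold change over the 8 was -0.28, and it was -0.18 over the 7 without Foxf1, beside -0.004 over all tested genes. Of the 7, 0 passed with edgeR and 0 with limma-voom, and 2 (Gli3 and Smo) were below an unadjusted edgeR p of 0.05, as were 17.9% of all tested genes. DESeq2 gave an adjusted p for only 2 of the 7, Dhh and Ptch1, and called neither. The number of genes called rested on single mice: it was 0 without inhibitor mouse 1 or 2 or control mouse 1 or 2, 7 lower and 3 higher without control mouse 3, and 935 lower and 1470 higher without inhibitor mouse 3, against 16 lower and 10 higher with all 6.

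The ligand was at the same level in both groups within the spread of the mice. Dhh, which encodes desert hedgehog (GRCm38 chromosome 15, 98891152 to 98898540, minus strand), had 20.8, 20.1 and 23.3 CPM in inhibitor mice and 21.4, 23.5 and 21.2 CPM in control mice. These values came from 460 to 667 fragments per inhibitor library and 535 to 1031 per control library. The groups overlapped throughout, with means of 21.4 ± 1.70 CPM in inhibitor mice and 22.0 ± 1.28 CPM in control mice (SD, n = 3 each), and the log2 fold change was -0.04 (SE 0.08, edgeR adjusted p = 0.829). The coefficient of variation was 7.96% in inhibitor mice, where counting error alone gives 4.22%, and 5.80% in control mice, where it gives 3.85%. Of the other mammalian ligands, Shh had 0 or 1 fragment in each inhibitor library and 0 to 2 in each control library. Ihh was at 0.211 FPKM over the 6 libraries, and its log2 fold change was 0.51 (SE 0.39, edgeR adjusted p = 0.521).

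**Figure D2:**
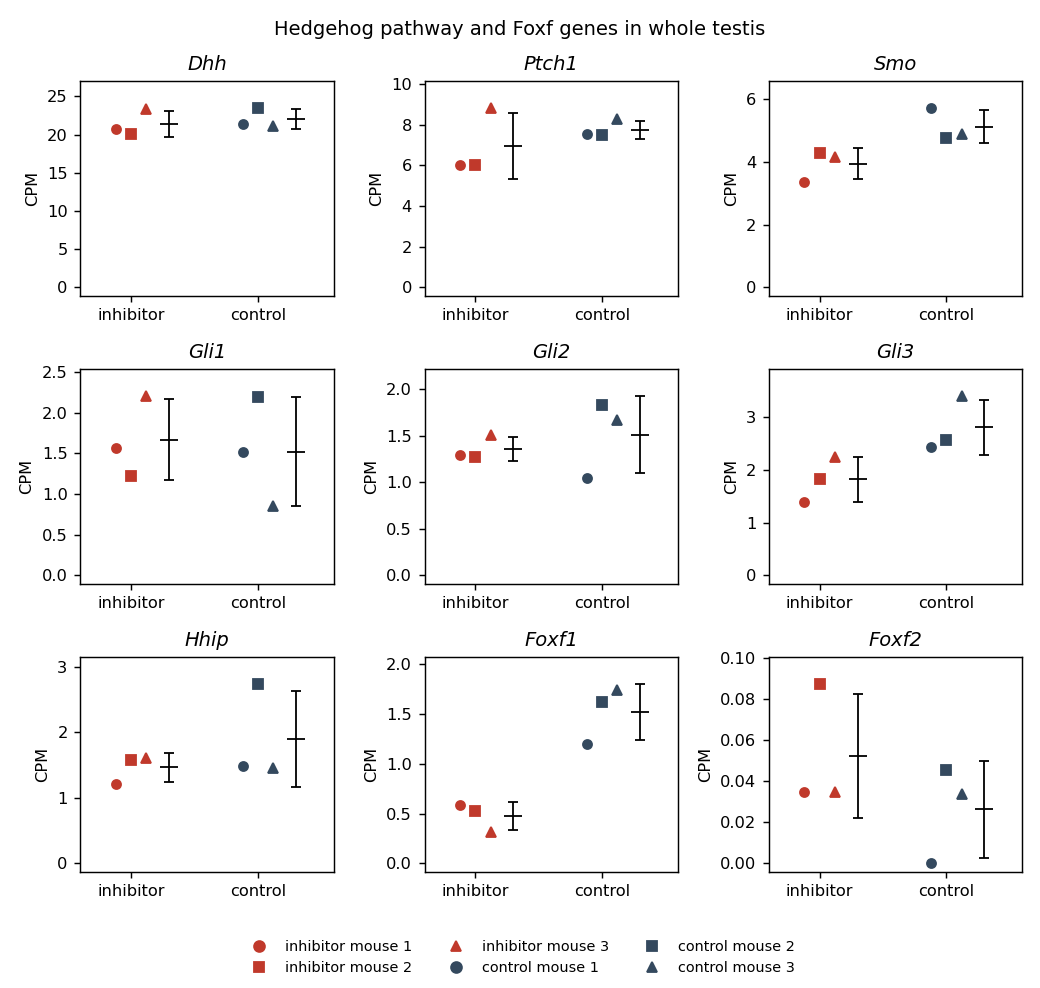
CPM of the 9 members in each mouse, inhibitor mice (red) left of control mice (dark blue), with the mean and SD of each group beside the points (n = 3). The groups are apart in Foxf1, Gli3 and Smo and overlap in the other 6 genes.

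Ptch1, the ligand's receptor (chromosome 13, 63508328 to 63573598, minus strand), had 6.01, 5.99 and 8.82 CPM in inhibitor mice and 7.53, 7.47 and 8.27 CPM in control mice. Inhibitor mice 1 and 2 lay below all controls and inhibitor mouse 3 above them, so the groups overlapped. The spread was 23.4% of the mean in inhibitor mice and 5.70% in control mice. The log2 fold change was -0.16 (SE 0.15, edgeR adjusted p = 0.626), and it depended on the mice included: it was -0.37 (edgeR adjusted p = 0.055) without inhibitor mouse 3, -0.06 without inhibitor mouse 1 or inhibitor mouse 2, and -0.10 without control mouse 3. It was -0.03 once each library's dependence on length and GC content of transcripts was taken out.

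Smo, which encodes the signal transducer that PTCH1 restrains (chromosome 6, 29735503 to 29761365, plus strand), had 3.37, 4.29 and 4.16 CPM in inhibitor mice. In control mice it had 5.73, 4.76 and 4.90 CPM. All 3 inhibitor values were below all 3 control values, but the gap between the groups was smaller than the range within either. The means were 3.94 ± 0.496 CPM in inhibitor mice and 5.13 ± 0.523 CPM in control mice (SD, n = 3 each) and the log2 fold change was -0.38 (SE 0.15, edgeR adjusted p = 0.207), which did not pass.

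Hhip encodes a membrane protein that binds hedgehog ligands and limits their reach (chromosome 8, 79965851 to 80058006, minus strand). It had 1.22, 1.57 and 1.61 CPM in inhibitor mice and 1.48, 2.73 and 1.46 CPM in control mice. Control mouse 2 was set apart, at 120 fragments, and the other 2 controls lay inside the range of the inhibitor mice. The estimate was -0.41 on the log2 scale (SE 0.27, edgeR adjusted p = 0.452), and -0.006 without that control. The coefficient of variation in control mice was 38.5%, against 14.0% from counting error.

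Among the 3 GLI genes the estimates differed in direction, and 0 of 3 passed in the fit with all 6 mice. Gli1, the activator and usual readout of the pathway (chromosome 10, 127329882 to 127341974, minus strand), had 1.56, 1.22 and 2.2 CPM in inhibitor mice and 1.52, 2.19 and 0.850 CPM in control mice. The groups overlapped fully, and the control mice alone spanned most of the range. Its coefficient of variation was 29.9% in inhibitor mice, where counting error gives 15.7%, and 44.0% in control mice, where it gives 16%. The log2 fold change was 0.11 (SE 0.33, edgeR adjusted p = 0.903). It turned negative, to -0.15 without inhibitor mouse 3 and -0.16 without control mouse 3, and reached 0.52 without control mouse 2, so these data give no direction for Gli1.

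Gli2, the activator that acts before Gli1 (chromosome 1, 118834132 to 119053619, minus strand), had 1.29, 1.27 and 1.5 CPM in inhibitor mice and 1.04, 1.82 and 1.67 CPM in control mice. The inhibitor values all fell between the lowest and the middle control value, and the log2 fold change was -0.18 (SE 0.24, edgeR adjusted p = 0.730). Without control mouse 2 it was -0.008, and without control mouse 1 it was -0.37. With the length and GC trend removed it was -0.006.

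Gli3 (chromosome 13, 15463235 to 15730026, plus strand) encodes a protein that acts largely as a repressor when the pathway is off. It had 1.39, 1.84 and 2.24 CPM in inhibitor mice and 2.44, 2.57 and 3.40 CPM in control mice, from 40, 42 and 64 fragments in inhibitor mice and 61, 113 and 100 fragments in control mice. The groups did not overlap, though inhibitor mouse 3 was close to control mouse 1. The means were 1.82 ± 0.425 CPM in inhibitor mice and 2.81 ± 0.519 CPM in control mice (SD, n = 3 each) and the log2 fold change was -0.62 (SE 0.21). It did not pass over all genes (edgeR adjusted p = 0.159). Without inhibitor mouse 3 it did (log2 fold change -0.81, adjusted p = 0.027), in the fit with the many calls.

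Foxf1 showed the largest difference of the members, and at 0.997 CPM over all libraries it rested on few fragments. The gene (GRCm38 chromosome 8, 121084386 to 121088144, plus strand) encodes a forkhead transcription factor of mesenchyme. It had 17, 12 and 9 fragments in inhibitor mice and 30, 71 and 51 fragments in control mice. In CPM these were 0.591, 0.525 and 0.315 in inhibitor mice and 1.20, 1.62 and 1.73 in control mice. The highest inhibitor mouse lay well below the lowest control mouse, control 1. The means were 0.477 ± 0.144 CPM in inhibitor mice and 1.52 ± 0.280 CPM in control mice (SD, n = 3 each), a level 3.21-fold lower in inhibitor mice (log2 fold change -1.68, SE 0.29). In both groups the spread was near that of counting alone: the coefficient of variation was 30.2% against 29.1% from counting in inhibitor mice, and 18.5% against 14.9% in control mice.

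The call of Foxf1 was marginal: by p it was number 25 of the 26 genes called. In the 15 alternatives that tested it the estimate was below 0 each time, and it passed in 4 of them, with adjusted p from 0.006 to 0.267. With any of the other 5 mice left out in place of inhibitor mouse 3 it did not pass, at log2 fold changes of -1.89 to -1.57 (edgeR adjusted p = 0.142 to 0.267). Without inhibitor mouse 3 it was at -1.44 (edgeR adjusted p = 0.006). In whole testis, fewer cells of the type that carries an RNA cannot be told apart from less of that RNA per cell, here and for the other members.

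Foxf2, the close relative of Foxf1 (chromosome 13, 31625816 to 31631403, plus strand), was barely detected. It had 1, 2 and 1 fragments in inhibitor mice and 0, 2 and 1 in control mice, which is at or under the limit of 3 fragments that a count of 0 allows (0.070 to 0.130 CPM per library, for counting error only). No comparison between groups was possible at this depth. The neighbours of Foxf2 did not pass: Foxq1, Foxc1 and Exoc2 had log2 fold changes of -0.13, -0.002 and 0.03 (0 of 3 with edgeR, 0 at an unadjusted p of 0.05, 0 with limma-voom, and 0 of the 2 to which DESeq2 gave an adjusted p).

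Around Foxf1, the other genes of the locus were at low levels or did not pass the threshold. Fendrr, a long noncoding RNA, starts 1276 bases from Foxf1 and is transcribed away from it (121054882 to 121083110, minus strand). It had 1, 2 and 1 fragments in inhibitor mice and 2, 11 and 6 in control mice, too few to be tested. Foxc2, another forkhead gene downstream, had 4, 9 and 4 fragments in inhibitor mice and 9, 14 and 9 in control mice, and Foxl1 had at most 3 in any library. Mthfsd, which lies between Foxf1 and Foxc2 and is transcribed in the opposite direction to both, was at 19.0, 19.7 and 19.2 CPM in inhibitor mice and 18.5, 19.1 and 18.6 CPM in control mice (log2 fold change 0.04, SE 0.07, edgeR adjusted p = 0.791). Irf8, a transcription factor gene of myeloid cells on the far side of Fendrr, was at -0.10 (SE 0.17, edgeR adjusted p = 0.804). Of these neighbours 2 of 5 were tested, and 0 passed with edgeR, limma-voom or DESeq2 (which gave an adjusted p for 1), and 0 were below an unadjusted p of 0.05.

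**Figure D3:**
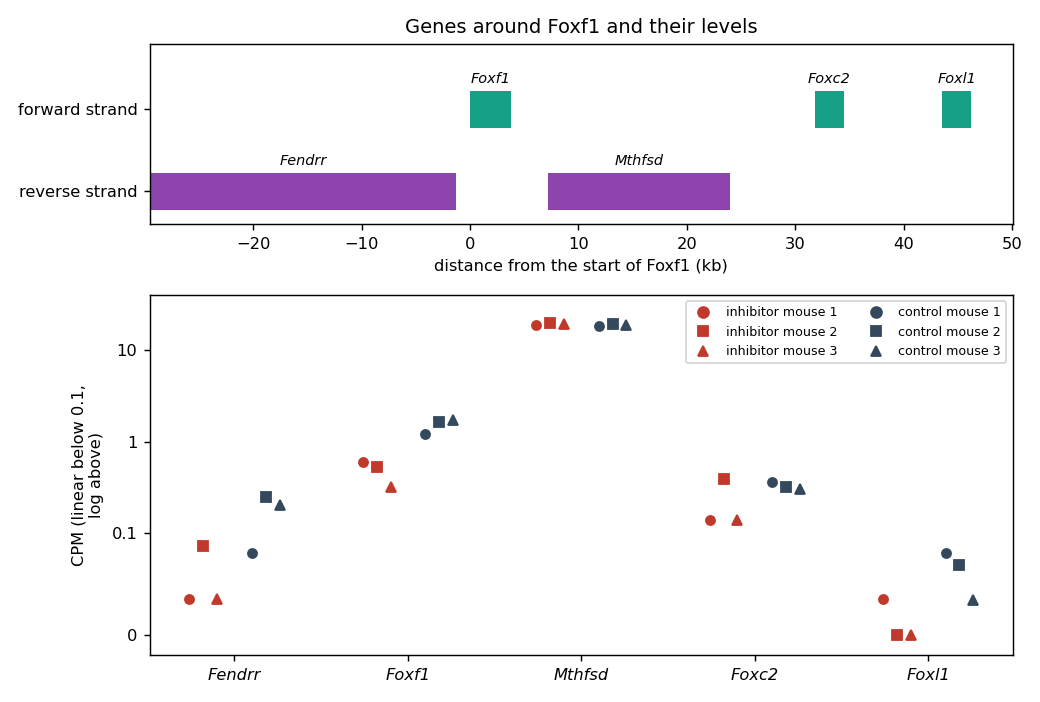
Top, genes around Foxf1 by strand against the distance from the start of Foxf1 in kb. Bottom, CPM of the same genes in each inhibitor mouse (red) and control mouse (dark blue), on a scale that is linear below 0.1 and logarithmic above. Mthfsd stays near 19 CPM in all 6 mice, while the 3 Foxf1 values of inhibitor mice are all below those of control mice.

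Of 44 forkhead genes in the table, 27 were tested, and Foxf1 alone passed (edgeR), the call by which it was chosen, against 0.156% of all tested genes. Foxf1 is also part of the edgeR counts and the median below, so nothing is read from them. At an unadjusted edgeR p of 0.05, 8 were lower, Foxf1 among them, and 0 higher. Of all 16658 tested genes, 1412 were lower and 1571 higher at that p. DESeq2, which gave no adjusted p to Foxf1, called 1 of the 15 to which it gave one, beside 528 of 11795 over all tested genes. The limma-voom fit called 0. Their median log2 fold change was -0.11, beside -0.004 over all tested genes. Among the 27, 7 were lower in all inhibitor mice than in all control mice and 1 was higher, beside 11.9% of all tested genes lower in this way. Foxo1, a factor of spermatogonial stem cell maintenance chosen after its values were seen, had the next smallest adjusted p of the family (log2 fold change -0.48, SE 0.10, edgeR adjusted p = 0.081).

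The rest of the pathway was read from 3 lists. Of all 16658 tested genes, 0.156% passed with edgeR, and 1412 were lower and 1571 higher at an unadjusted p of 0.05. The first held other ligands, receptors and proteins that release or bind the ligand. Of its 13 genes 12 were tested and 0 passed (edgeR, and 0 with limma-voom and with DESeq2 over the 6 to which it gave an adjusted p), with 1 lower and 0 higher at an unadjusted p of 0.05. Their median log2 fold change was -0.16. Disp1, needed for release of the lipid-bearing ligand, was at -0.32, and Scube3 and Scube1 of a family of secreted proteins that aid release were at -0.33 and -0.31 (edgeR adjusted p = 0.313, 0.295 and 0.490).

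The second list held genes of the steps from SMO to the GLI proteins and of the cilium. Of its 28 genes 27 were tested and 0 passed with edgeR, limma-voom or DESeq2 (which gave an adjusted p for 24), with 2 lower and 1 higher at an unadjusted p of 0.05 and a median log2 fold change of -0.05. Over all tested genes, 17.9% were below that unadjusted edgeR p in either direction. Sufu, which holds GLI proteins inactive, was at 87.3 FPKM over the 6 libraries, far above any member, and at 194 ± 11.4 CPM in inhibitor mice and 189 ± 0.816 CPM in control mice (SD, n = 3 each; log2 fold change 0.04). Efcab7 and Evc2, both of the complex that carries the SMO signal in the cilium, were at 0.25 and -0.46 (edgeR adjusted p = 0.176 and 0.237). Csnk1a1, a kinase that phosphorylates GLI proteins, was at 0.08.

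The third list held 15 other genes reported to respond to hedgehog signals in some tissue, and 1 of the 14 tested passed, with 5 lower and 0 higher at an unadjusted p of 0.05. Their median log2 fold change was -0.20. Of all 16658 tested genes, 0.096% were called lower, and 1412 were lower and 1571 higher at that unadjusted edgeR p. The lists were chosen with earlier results of these data known, so their counts are a description. Ccnd2, a cyclin gene of the G1 phase, was at 5.08, 5.51 and 5.25 CPM in inhibitor mice and 8.25, 9.09 and 8.78 CPM in control mice, with no overlap (log2 fold change -0.73, SE 0.11, edgeR adjusted p = 0.032). Jag2, a Notch ligand gene, was at 13.2 ± 0.848 CPM in inhibitor mice and 17.6 ± 0.495 CPM in control mice (SD, n = 3 each), also without overlap, and did not pass (log2 fold change -0.42, edgeR adjusted p = 0.067). Ccnd1, the cyclin of the same family, was at -0.31 (edgeR adjusted p = 0.159). With any of the other 5 mice left out in place of inhibitor mouse 3, 0 genes of the 3 lists passed. Without inhibitor mouse 3, 6 passed, among them Ccnd2, Efcab7, Jag2, Kif7 and Mycn. That fit called 935 genes lower and 1470 higher over all genes, so nothing is read from the 6. Several genes of the third list also answer to other signals, and Ccnd2 is expressed in spermatogonia.

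**Figure D4:**
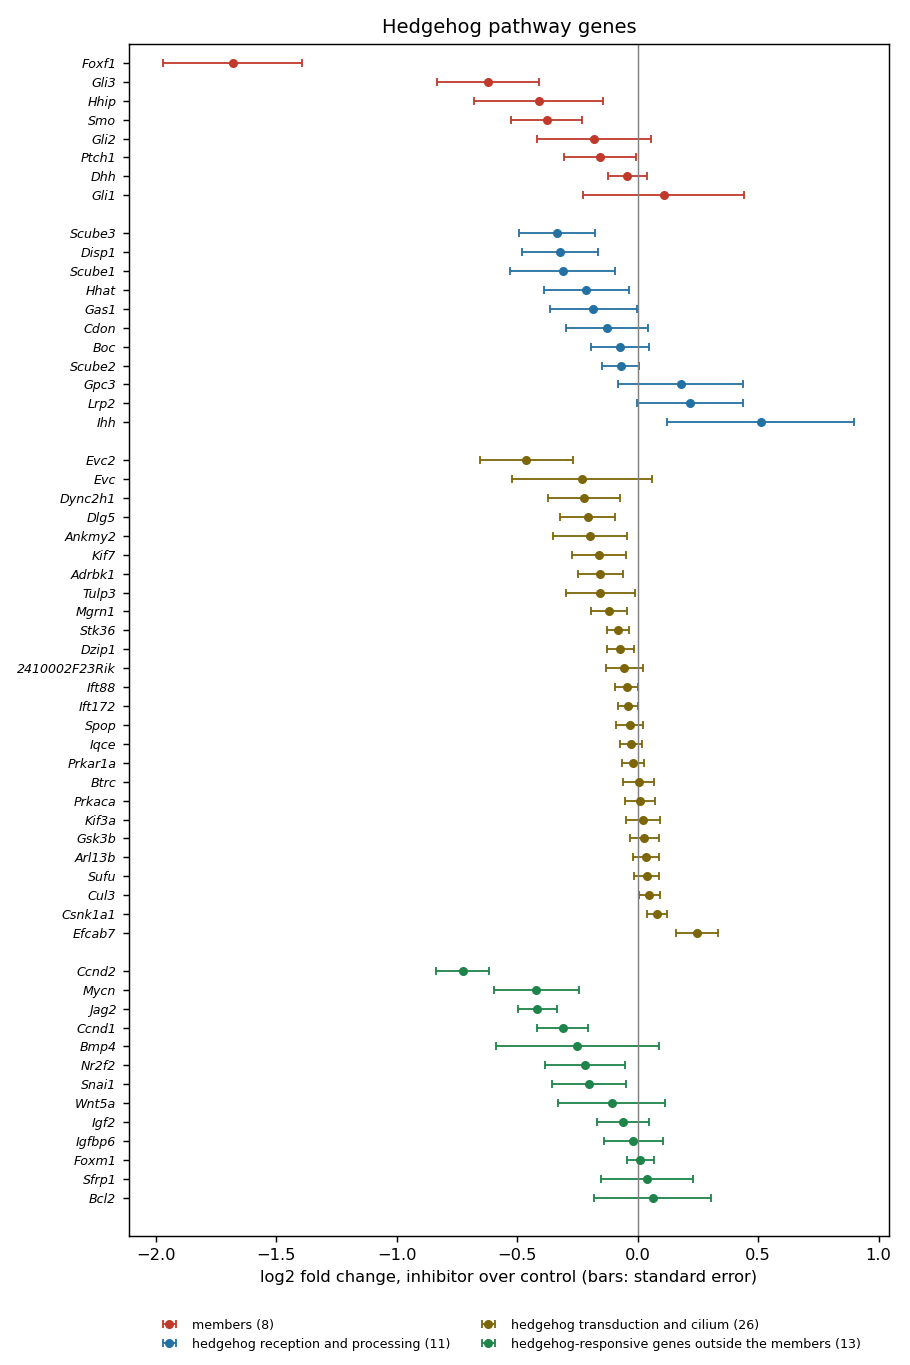
Log2 fold changes of inhibitor over control mice with standard errors for the tested members (8) and for 11, 26 and 13 of the 12, 27 and 14 tested genes of the 3 pathway lists, each sorted by its estimate; the others are not reported here. Foxf1 at -1.68 and Ccnd2 at -0.73 are the genes past the threshold, and 2410002F23Rik and Adrbk1 are the table's symbols for Mosmo and Grk2.

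Markers of the cells that send and receive the signal were present in all libraries. Summed CPM of 13 Sertoli markers ranged from 577 to 695 in inhibitor mice and from 647 to 680 in control mice. The range for 10 Leydig markers was 998 to 1209 CPM in inhibitor mice and 1058 to 1326 CPM in control mice. For 10 peritubular myoid markers it was 337 to 355 CPM in inhibitor mice and 334 to 393 CPM in control mice, and for 11 markers of stromal progenitors and fibroblasts 139 to 150 CPM in inhibitor mice and 135 to 169 CPM in control mice. Actg2 made up 46.5% to 58.4% of the myoid sum, and without it the sums also overlapped, at 141 to 157 CPM in inhibitor mice and 150 to 210 CPM in control mice. Endothelial markers (10) summed to 47.6 to 61.6 CPM in inhibitor mice and 56.4 to 60.4 CPM in control mice, and pericyte markers (6) to 7.66 to 12.7 CPM in inhibitor mice and 8.29 to 11.6 CPM in control mice. All 6 of these sums overlapped between the groups, and 0 of their markers were at 0 in all libraries. Gene by gene, most estimates in several of these lists were below 0: 9 of 10 myoid genes (median log2 fold change -0.22), 12 of 13 Sertoli genes (-0.14), 8 of 11 stromal genes (-0.18), 8 of 10 endothelial genes (-0.10) and 7 of 10 Leydig genes (-0.04). Of the 5 tested pericyte genes 2 were below 0 (0.04). Over all tested genes 8501 of 16658 estimates were below 0, with a median of -0.004. Of the 59 tested genes in the 6 lists, 0 passed with edgeR or limma-voom (8 lower and 1 higher at an unadjusted p of 0.05). DESeq2 called 1 of the 38 to which it gave an adjusted p, beside 528 of 11795 over all tested genes. Of all 16658 tested genes, 1412 were lower and 1571 higher at that unadjusted edgeR p. The part of these cell types in the values of Foxf1, Gli3 and Smo was not tested.

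Some germ cell marker sums separated the groups, as Foxf1 did. The summed CPM of 19 markers of undifferentiated spermatogonia, the stem cell-containing germ cells that carry Ret, was 89.8 to 106 in inhibitor mice and 122 to 124 in control mice, and 4 of its 16 tested genes passed, all lower (Ret, Sox3, Zbtb16 and Lin28a; edgeR). Over all tested genes, 0.096% were called lower. The marker list was chosen with earlier results of these data known, so these counts are a description. Ret had a log2 fold change of -1.91 and Sox3 of -1.51. Markers of spermatocytes (9) summed to 6550 to 6886 CPM in inhibitor mice and 6001 to 6267 CPM in control mice, and those of spermatids (10) to 16491 to 18354 CPM in inhibitor mice and 15329 to 16079 CPM in control mice. The sums of 8 markers of differentiating spermatogonia overlapped, at 712 to 755 CPM in inhibitor mice and 709 to 718 CPM in control mice. These sums lean on abundant genes, so each was also taken without its most abundant marker, a step chosen after the values were seen. The undifferentiated spermatogonia without Id4 were still apart, at 57.7 to 72.2 CPM in inhibitor mice and 84.6 to 92.1 CPM in control mice, as were the spermatocytes without Ldhc. The spermatids without Prm2 overlapped, and the differentiating spermatogonia without Dmrtb1 were lower in inhibitor mice, at 171 to 177 CPM, against 194 to 200 CPM in control mice. Macrophage markers (8) summed to 407 to 448 CPM in inhibitor mice and 364 to 378 CPM in control mice, but Aif1 made up 84.4% to 87.7% of that sum. Without Aif1 the sums overlapped, at 49.9 to 56.2 CPM in inhibitor mice and 44.8 to 59.0 CPM in control mice, and 6 of the 8 macrophage estimates were below 0. The part of any of these cell types in the Foxf1 and Gli3 values was not tested.

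Markers of tissue that adjoins the testis were at low levels. Those of epididymis and rete testis (10, of which Lcn5 was at 0 in all libraries) summed to 5.42 to 10.5 CPM in inhibitor mice and 8.77 to 9.49 CPM in control mice, with inhibitor mouse 3 at the low end. Mesothelial markers (6) summed to 4.79 to 9.00 CPM in inhibitor mice and 5.08 to 5.81 CPM in control mice. The epididymal and rete sum, at 9.91 and 10.5 CPM in inhibitor mice 1 and 2, turned on Rnase10, Pax2 and Ros1. Rnase10 was at 4.07, 5.42 and 0.070 CPM in inhibitor mice and 3.92, 3.94 and 4.35 CPM in control mice. Without Rnase10 the sums also overlapped, at 5.12 to 5.84 CPM in inhibitor mice and 4.85 to 5.14 CPM in control mice. Lcn5, Lcn8, Lcn9, Adam7 and Crisp1 were below 0.3 CPM in every library. The part of these tissues in the Foxf1 values was not tested.

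**Figure D5:**
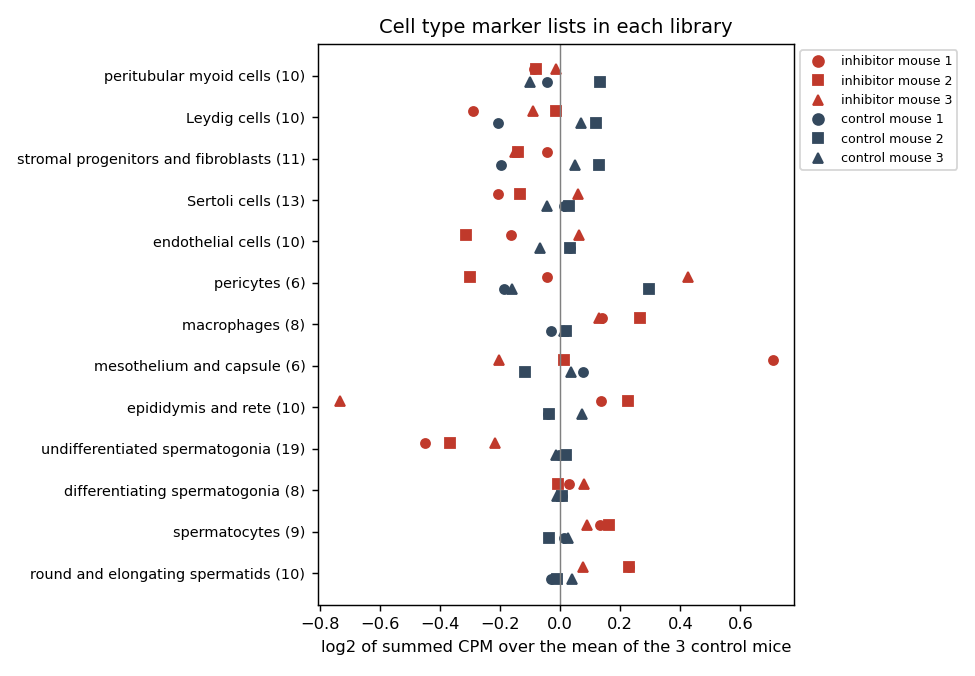
Log2 of the summed CPM of each marker list (number of genes in brackets) over the mean of the 3 control mice, for each inhibitor mouse (red, upper row) and control mouse (dark blue, lower row). The inhibitor mice lie below all controls in undifferentiated spermatogonia (89.8 to 106 CPM in inhibitor mice, against 122 to 124 CPM in control mice) and above them in spermatocytes, and also in macrophages and spermatids, whose sums overlap when Aif1 and Prm2 are left out.

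Genes whose pattern over the 6 libraries was most like that of Foxf1 were sought among 14951 tested genes outside the set with a mean of at least 1 CPM, by Pearson correlation of log2 CPM. The 6 highest were Traf3, Aff3, Bnc2, Tsga8, Znhit2 and Wdr4, with r from 0.984 to 0.992. All 6 were lower in every inhibitor mouse than in every control mouse, with log2 fold changes of only -0.37 to -0.11, and none passed. They share with Foxf1 the same 6 libraries and a gap between the groups in the same direction, though Foxf1 itself was at -1.68. When only deviations from the group means were compared, a different 6 came first (Lrrc57, Dnajb1, Gnal, Zfp784, Mgst2 and Vti1a, r from 0.994 to 0.998), and 0 of them were lower in all inhibitor mice. With 6 libraries and so many genes such values of r arise readily, and they are given as a description.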

How the data were processed

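Per the submitters' processing notes, cutadapt 1.8, TopHat2 2.0.13, Cuffdiff 2.2.1 and build mm10 were used. What each tool did, the annotation and the strand setting are not given in the sources used. The authors deposited expected counts per gene and library (fragments before library scaling), of which 98.8% were whole within 1e-06; they were rounded here. The FPKM values deposited beside them were scaled by the authors' software to transcript length and library size. None of the 9 members held a value that was not whole or had a failed status.

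Genes were tested in edgeR 4.0.16 (R 4.3.3): filterByExpr, TMM scaling, robust quasi-likelihood F-test, two-sided, Benjamini-Hochberg adjustment over 16658 genes at 0.05. CPM uses the same scaling, and log2 CPM a prior count of 2. Fold changes are inhibitor over control. Counting error is the root mean of 1 over the fragments. The replicates differed beyond counting noise. Mouse numbers did not pair the samples (correlations of deviations -0.12 to 0.06). Gene positions and transcript lengths came from GENCODE M21 (GRCm38, the same assembly as mm10), promoters from RefSeq. The procedure was tested on simulated counts in which no mouse was set apart, so that test says nothing of the dependence on single mice.

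The members and lists were chosen with earlier results of these data known. All members are named, and every tested neighbour; of each pathway list up to 4 genes and of each marker list up to 2 with the smallest p, some of which are not reported here; the 6 genes most like Foxf1; and forkhead genes past the threshold. Other names were chosen after their values were seen. Of the list symbols, Mosmo, Grk2, Adgre1 and Spag6l were matched through older symbols. Alternatives were other scalings, filters and tests (DESeq2 1.42.0, limma 3.58.1), the replicate block, each mouse left out, and removal per library of a loess trend (span 0.5) on the length and GC content of the transcript, which 93.3% of tested genes had.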

Additional observations from a re-analysis of the deposited data

How the results depend on the processing

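The count of genes past the threshold depended strongly on the setting, and Foxf1 with it. Against 16 lower and 10 higher, DESeq2 gave 165 and 363, no filter on low counts 57 and 58, library totals only 23 and 4, limma-voom 11 and 3, at least 50 counts in 3 libraries 7 and 3, limma on log2(FPKM + 1) 0 and 0, and limma on log2(FPKM + 0.1) 1 and 0. RLE size factors gave 12 and 10, and removal of the length and GC trend 12 and 14. The replicate block gave 5 and 0, and with the length and GC trend also removed 2 and 0. With single mice left out the counts ranged from 0 to 935 lower and 0 to 1470 higher. Members past the threshold, 1 in the main test, were 0 with RLE size factors (adjusted p of Foxf1 0.052), limma-voom (0.061), both FPKM fits, at least 50 counts in 3 libraries (where Foxf1 was not tested), the replicate block (0.121) and the block with the trend removed (0.130), and 0 to 2 with single mice left out. Foxf1 passed with library totals only (edgeR adjusted p = 0.043), no filter on low counts (0.016) and the length and GC trend removed (0.045). DESeq2 gave no adjusted p for 6 of the 8 members, Foxf1 among them. Pathway list genes past the threshold, 1 in the main test, were 2 with DESeq2 and with no filter (Ccnd2 and Jag2), 0 with both FPKM fits, the replicate block and the block with the trend removed, and 0 to 6 with single mice left out.

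Of 126 member values under alternatives, 6 changed sign and none of these 6 passed in any fit: Dhh at 0.042 with the trend removed, 0.043 with the block as well and 0.012 without control 2 (-0.111 to 0.012 with single mice left out); Gli1 at -0.152 without inhibitor 3 and -0.160 without control 3 (up to 0.520 with single mice left out); and Gli2 at 0.031 with the trend removed and the block. Foxf1 shrank most on log2(FPKM + 1), to -0.46, a scale that understates low genes. With log2(FPKM + 0.1) in place of log2 CPM, 4 of the 6 genes most like Foxf1 were kept. At 9 to 71 fragments per library for Foxf1 and 0 to 2 for Foxf2, counting limits what these genes can show. The causes of these changes were not tested.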
